A study of Mus musculus with 8 samples.

Results

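The Aldh1b1 locus on mouse chromosome 4 was followed through peak lists of methylated DNA from the intestinal epithelium. Members were the peaks of 8 lists that overlap chr4:45710000-45920000 in the mm9 build, 210 kb around a gene span given in the rule as about 45811900 to 45817500. The window held 279 of 1723486 peaks. Peaks of any list that shared at least 1 bp were merged, which gave 71 of the 475861 merged regions of the series. Of these, 1 lay inside the gene span, 34 before it and 36 after it.

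Methylated DNA was pulled down with a methyl-CpG-binding domain (MBD) protein and sequenced, so a peak marks DNA fragments rich in methylated CpGs. The 8 libraries formed 4 groups of 2 biological replicates, all from small intestine of mice of a mixed C57BL/6 and CD1 strain. Embryonic epithelium of 2 stages, E12.5 and E14.5, was sorted as EpCAM+ cells without CD31, CD45 or DAPI staining. Adult cells came from Lgr5EGFP-Cre-ERT males at postnatal day 60, and were either enterocytes or Lgr5+ intestinal stem cells (ISC), gated by high EGFP from the stem cell gene Lgr5. The sort gate that the labels give for enterocytes is the same EpCAM+ gate as for embryos. The sources used here do not say how many animals were pooled per replicate or which sex the embryos were. Peak lists hold no expression values, so the labelled cell types could not be checked against marker genes, and the level of Aldh1b1 RNA was not measured.

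Aldh1b1 encodes a mitochondrial aldehyde dehydrogenase that oxidises acetaldehyde and other aldehydes and can convert retinaldehyde to retinoic acid, a signal used in gut development. In the adult intestine its protein is known as a marker of the stem and progenitor cells of the crypt base, and in the pancreas it marks progenitor cells. Its protein-coding sequence lies in a single exon. Methylation at promoters often goes with silencing of a gene, whereas methylation inside genes has no such fixed link.

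The locus was selected on the presence and tag counts of its peaks in these same libraries. The values inside the gene are therefore given as a description with no test. With 2 libraries against 2, an exact two-sided permutation test could not in any case fall below p = 0.333.

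Because the question at a gene is first whether its promoter carries methylation, the 250 bases before the start of Aldh1b1 are shown, from RefSeq in GRCm38.p6 (chr4:45798772-45799021, plus strand). These positions cannot be set beside the mm9 positions of the peaks. The sequence runs 5′ to 3′ and its CpG sites, searched as CG (its own reverse complement, so the same on both strands), are in capitals.

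Aldh1b1 promoter: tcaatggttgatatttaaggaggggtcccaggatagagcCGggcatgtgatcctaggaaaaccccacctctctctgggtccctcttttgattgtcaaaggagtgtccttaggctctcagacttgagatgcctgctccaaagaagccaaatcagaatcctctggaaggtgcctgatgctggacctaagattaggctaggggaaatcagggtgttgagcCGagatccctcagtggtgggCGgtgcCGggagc

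It held 4 CpG sites, at 211, 33, 13 and 7 bases before the start. The ratio of observed to expected CpGs was 0.231 and the GC content 53.2%. Over all 32851 RefSeq promoters of this length, the median was 6 CpGs, a ratio of 0.374 and a GC content of 52.4%, and 62.2% held 4 or more CpGs. At least 1 CpG was present in 92.1% of them. MBD pull-down captures fragments by their methylated CpGs, so a stretch with few CpGs gives little signal whatever its methylation. Whether this applies at the start of Aldh1b1 was not tested.

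In the peak lists, no library had a peak at the start of Aldh1b1. The last peak before the gene ended at 45807663, 4237 bp before the span, and the next began at 45815146, 3246 bp inside it. This left 7483 bp with no peak in any library around the start of the gene.

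The methylated region of the gene lay in its 3′ part. It spanned chr4:45815146-45816934, 1789 bp or 31.9% of the gene span, and ended 566 bp before the end of the span. All 4 embryonic libraries and none of the 4 adult libraries had a peak there. Over all merged regions of the series, this presence pattern was found at 662, or 0.139%. The pattern is what the locus was chosen for, and nothing is read from its rarity. Whether the region falls in the coding exon was not determined, since no mm9 annotation was used here.

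At E14.5 this was the largest peak of the whole window by tags, the caller's count of sequenced fragments. E14.5 replicate 1 had 215 tags over 1781 bp and replicate 2 had 241 tags over 1678 bp, the highest of 47 and 53 window peaks. Scaled to RPM, tags per 1000000 tags of the library, these were 6.22 and 6.91, a mean of 6.56 ± 0.486 (SD, n = 2). The caller's score, 10 times the negative log10 of its p-value, was 421.09 and 618.3, at percentile 99.84 and 99.96 of each library's own list. Both E14.5 libraries were thus alike in peak length, tags and rank.

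At E12.5 the 2 replicates were far apart. Replicate 1 had 161 tags over 1585 bp, or 2.91 RPM, again the highest of its 18 window peaks. Replicate 2 had 36 tags over 421 bp, or 0.649 RPM, rank 16 of 21. The mean was 1.78 ± 1.60 RPM (SD, n = 2), so the spread was nearly as large as the mean. The score of the replicate 1 peak was 196.81, at percentile 99.1 of its list, and that of replicate 2 was 51.57, at percentile 6.26 and just inside the caller's threshold of 50. Peaks under that threshold are not listed, so no value just outside it can be given.

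The region kept nearly the same borders in 3 of the 4 embryonic libraries. The E14.5 peaks began 3.25 and 3.34 kb after the start of the gene span and ended at 5.03 and 5.02 kb. The peak of E12.5 replicate 1 ran from 3.45 to 5.03 kb, while that of replicate 2 covered 3.78 to 4.20 kb. The 421 bp at 45815675 to 45816095 were common to all 4 peaks. The summits, where tags were densest, differed more than the borders. They lay at 3.72 and 3.47 kb at E14.5 and at 4.79 and 3.98 kb at E12.5.

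**Figure D1:**
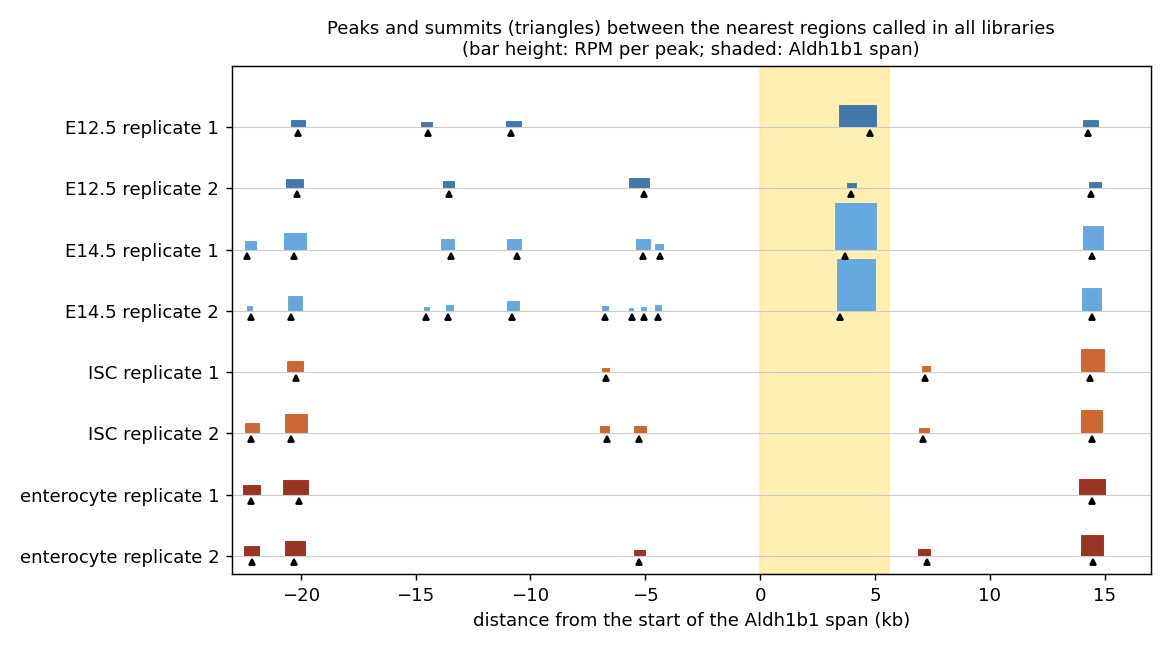
Peaks of each library (rows) by distance in kb from the start of the Aldh1b1 span (horizontal axis). Bar width is peak extent, bar height is RPM per peak (6.91 for the tallest), triangles are summits and the shaded band is the gene span. All 4 embryonic libraries have a peak in the 3′ part of the gene, the adult libraries have none, and no library has a peak at the gene start.

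In RPM, both E14.5 libraries were above both E12.5 libraries, with a mean difference of 2.25 on the log2 scale. The SDs of log2 RPM in the 2 groups, combined as the root of their summed squares, gave 1.54. That is the spread of a difference between single libraries, not between means. Without E12.5 replicate 2 the difference was 1.17, and without E12.5 replicate 1 it was 3.34. The share of tags inside peaks differed in the same direction, at 9.84% and 7.46% in the E12.5 libraries and 37.7% and 29.9% at E14.5. The parts of depth, list length, pull-down and methylation in this share cannot be told apart and were not tested. Per 1000000 tags inside peaks, the region had 29.6 and 8.70 at E12.5 and 16.5 and 23.1 at E14.5. On that scale the groups overlapped and the log2 difference was 0.28. A rise from E12.5 to E14.5 that is particular to the gene was therefore not shown.

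The regions next to the gene that were called in all 8 libraries give a local reference. The nearest before it was chr4:45791129-45792223, 22.9 kb from the methylated region. The adult libraries held 48 and 82 tags there (ISC) and 84 and 79 (enterocytes), the embryonic ones 48 and 67 (E12.5) and 75 and 68 (E14.5). The nearest after it was chr4:45825772-45826926, at a distance of 8838 bp. The ISC pair held 98 and 96 tags there and the enterocyte pair 88 and 109. The E12.5 pair had 49 and 45, and the E14.5 pair 107 and 106. Both regions together had 1.89 ± 0.187 RPM at E12.5 and 5.13 ± 0.196 at E14.5, while adult values were 5.08 ± 0.820 for ISC and 4.39 ± 0.590 for enterocytes (SD, n = 2 each). The E14.5 and adult libraries were thus close to each other on both sides of the gene, and both E12.5 libraries were lower.

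Relative to these neighbours, the gene region had 1.66 and 0.321 times their summed tags at E12.5 and 1.18 and 1.39 times at E14.5. The E14.5 values lay between those of the E12.5 replicates. On this scale, chosen after the data were seen, the log2 difference between the stages was 0.81. In the adult libraries the same neighbours were called with 146 to 188 tags together, while the gene between them had no peak. The neighbours were picked for a peak in every library and the gene for its pattern, so this contrast in calls is part of the choice.

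**Figure D2:**
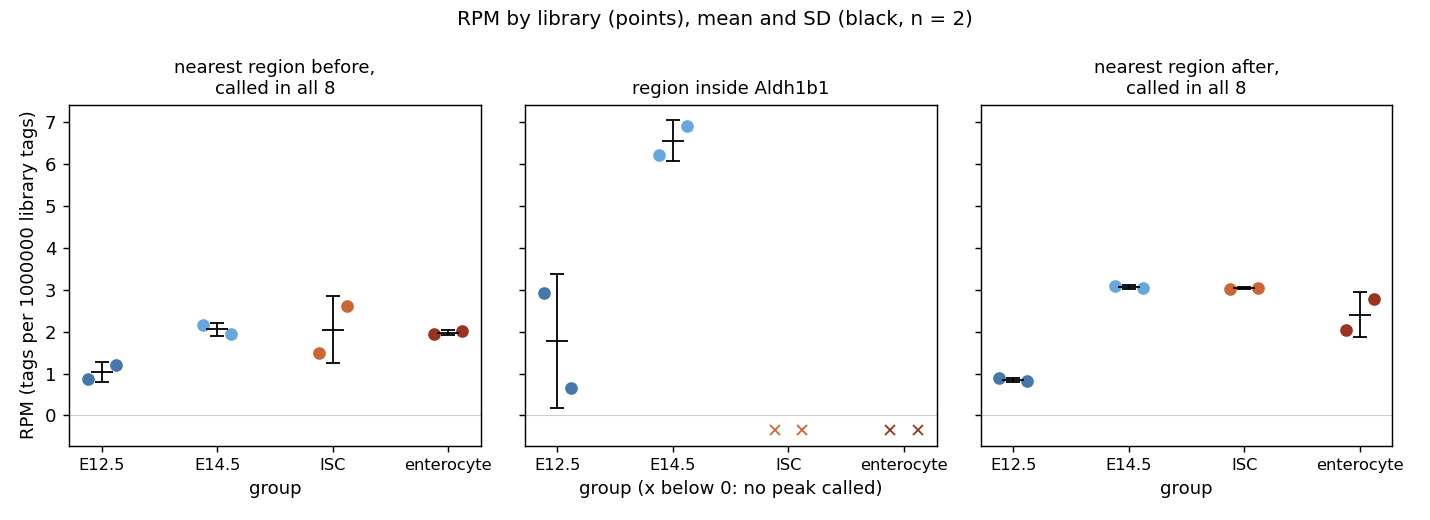
RPM (vertical axis) for the region inside Aldh1b1 (middle) and the nearest regions called in all 8 libraries before (left) and after it (right), by group. Points are libraries, black bars are mean and SD (n = 2), and crosses below 0 mark libraries with no peak. The neighbours were picked for a peak in every library and the gene for its presence pattern, so their contrast in calls is part of the choice.

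Both E14.5 values in the gene were above the smallest RPM that the adult lists held. Of the peaks in the adult lists, 99.4% to 99.9% had a lower RPM than the lower E14.5 value of 6.22. Adult peaks of like length, 1510 to 1959 bp, numbered 1268 and 3183 in ISC and 10821 and 5622 in enterocytes. They were called from as few as 2.96 and 3.02 RPM in ISC and 1.82 and 2.27 in enterocytes. Their medians were 4.16 and 4.71 RPM in ISC and 2.98 and 3.83 in enterocytes. Such peaks come from the whole genome, so they do not show from what value a peak would be called inside the gene. The peak of E12.5 replicate 2, at 0.649 RPM, was near the lowest value of any adult peak, which ranged from 0.463 to 0.531. A missing peak says that tags did not pass the cutoff of the caller, not that the DNA was unmethylated, and the lists give no adult tag count for the region.

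The caller's fold enrichment is a ratio to the local background of the same library. It was 3.87 and 4.32 at E12.5 (mean 4.10 ± 0.318, SD, n = 2) and 5.12 and 6.71 at E14.5 (5.92 ± 1.12, SD, n = 2). Within their own lists these were at percentile 22.8 and 35.4 at E12.5, and 17.6 and 30.0 at E14.5. So the region ranked near the top of the E14.5 lists by tags and score and in the lower part by fold. Per kb of peak, the region had 1.84 and 1.54 RPM at E12.5 and 3.49 and 4.12 at E14.5, and on this scale the E12.5 replicates lay close together.

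Between the flanking regions called in all libraries lay a stretch of 33.5 kb with the gene inside it and 8 merged regions in all. Of these, 5 had peaks in embryonic libraries only, 1 in adult libraries only and 2 in both. The 5 include the gene region, which was chosen for its presence pattern, so this count is partly set by the choice. Over all regions of the series, 25.2% had embryonic peaks only and 13% adult peaks only. In the other 63 regions of the window, 12 had embryonic peaks only and 7 adult peaks only. E14.5 replicates had peaks in 5 and 7 of the 8 regions, E12.5 replicates in 3 each, ISC replicates in 2 and 3, and enterocyte replicates in 0 and 2. Enterocyte replicate 1, whose list was the shortest of the adult ones with 164157 peaks, thus had no peak over the whole stretch.

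Apart from the gene, the embryonic regions of the stretch lay before it. They were weaker than the gene region at E14.5 and in E12.5 replicate 1, but not in E12.5 replicate 2. The region at chr4:45797990-45798586 held 50 tags in E12.5 replicate 2, above the 36 of the gene region there, and 49 and 25 at E14.5. That at chr4:45800823-45801509 held 45 tags in E12.5 replicate 1, and 48 and 45 at E14.5. Nearest to the gene, chr4:45807310-45807663 held 23 and 25 tags at E14.5 and had no other peak. The fourth, chr4:45797135-45797599, held 36 tags in E12.5 replicate 1 and 16 in E14.5 replicate 2. No adult library had a peak in any of these 4, and the 2 E12.5 libraries shared none of them.

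Regions with both embryonic and adult peaks filled the rest of the upstream side. The region at chr4:45806174-45807107 held 78 tags in E12.5 replicate 2, 47 and 32 at E14.5, 30 in ISC replicate 2 and 30 in enterocyte replicate 2. Its 32 tags in E14.5 replicate 2 are the sum of 2 peaks, of 15 and 17. The region at chr4:45804946-45805343 held 23 tags in E14.5 replicate 2 and 18 and 32 in ISC. So adult stem cells did carry peaks within 6557 bp of the gene span, at tag counts near those of the weak embryonic peaks.

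Just past the gene the presence of peaks was the reverse. The region at chr4:45818765-45819317, 1265 bp after the span, held 26 and 22 tags in ISC and 38 in enterocyte replicate 2, and no embryonic library had a peak in it. These were 0.802 and 0.700 RPM in ISC and 0.971 in the enterocyte library. It was the only flank region with peaks in the ISC pair and none in the E14.5 pair, a pattern found at 1.91% of all regions. The peak of ISC replicate 2 had a score of 55.43, at percentile 10.8 of its list, so its call was close to the threshold.

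**Figure D3:**
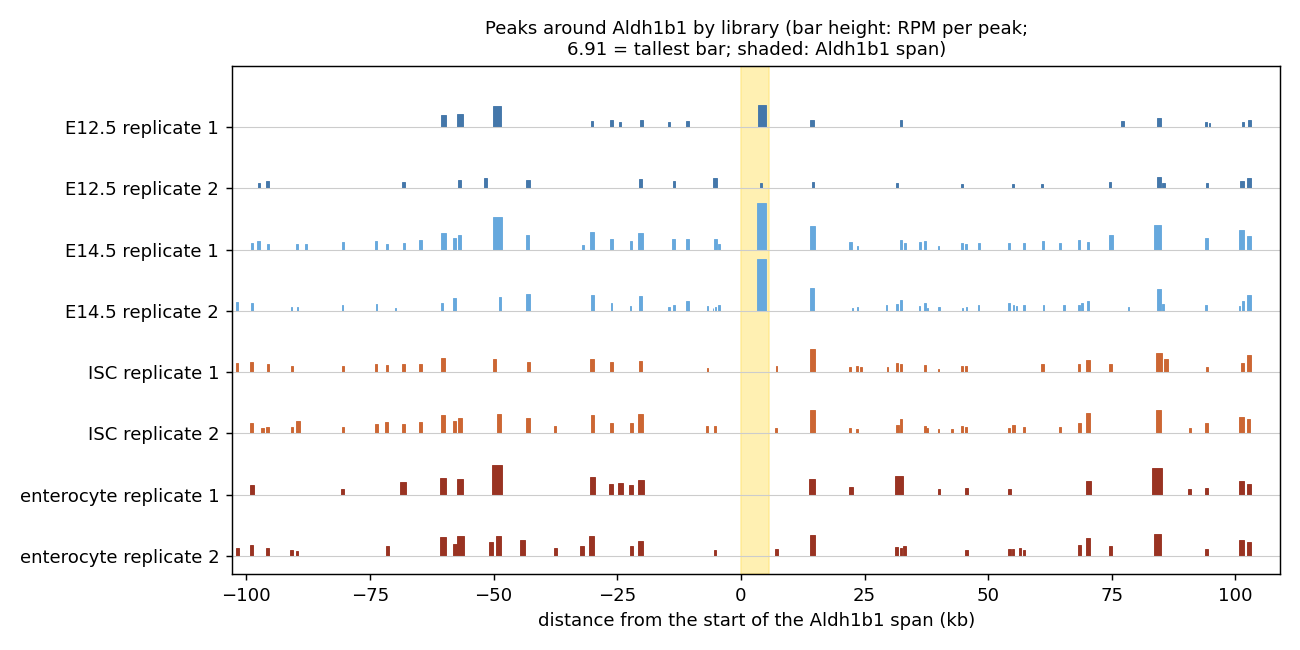
Peaks of the 8 libraries (rows) over the 210 kb window, by distance in kb from the start of the Aldh1b1 span (horizontal axis). Bar height is RPM per peak on one scale, with 6.91 for the tallest, and the shaded band is the gene span. The tallest bars of both E14.5 libraries stand in the gene, and peaks of the adult libraries lie on both sides of it.

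In the flanks, peaks of all groups were frequent. Of the 70 flank regions, both replicates had a peak in 8 for E12.5, 35 for E14.5, 30 for ISC and 16 for enterocytes. The same rules called 7.93%, 43.7%, 31.4% and 27.7% of all regions, against 11.4%, 50%, 42.9% and 22.9% here. By library, E12.5 replicates had a peak in 17 and 20 of the 70, E14.5 in 46 and 47, ISC in 36 and 43, and enterocytes in 23 and 33. Counts for both libraries at E12.5 and in enterocytes thus fell well below those of each library by itself. In each library the density of peaks over the window was above that over the autosomes, by 1.65 to 2.92 times.

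**Figure D4:**
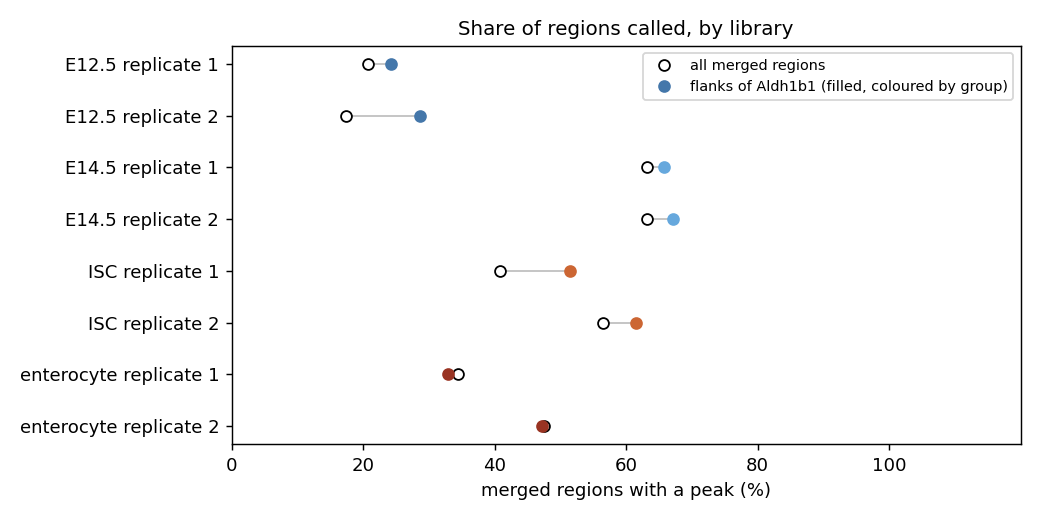
Share of merged regions with a peak (horizontal axis, percent) by library (rows), for the 70 flank regions around Aldh1b1 (filled, coloured by group) and all 475861 regions (open). Shares in the flanks ran from 24.3% in E12.5 replicate 1 to 67.1% in E14.5 replicate 2, with the E12.5 libraries lowest and the E14.5 libraries highest, as over all regions.

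Regions that parted E14.5 from adult cells were about as frequent in the flanks as elsewhere when set against ISC. Peaks in the E14.5 pair but in no ISC list were found in 5 of the 70 (7.14%), against 6.69% of all regions, and none of these 5 had an enterocyte peak either. The pattern of both E14.5 libraries and no adult library covered 4.47% of all regions. Besides the 3 regions before the gene given above, they were chr4:45847924-45848342, with 34 and 21 tags at E14.5, and chr4:45859765-45860226, with 29 and 28. These 5 had 0.602 to 1.42 RPM at E14.5, all below the 6.22 and 6.91 of the gene region.

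Between the embryonic stages, 18 of the 70 flank regions had peaks in the E14.5 pair and none in the E12.5 pair, against 23.9% of all regions, and 0 had the reverse pattern, against 0.276%. The 7 before the gene lay 98417, 89099, 80179, 73355, 57470, 21786 and 4237 bp from it and held 19 to 58 tags at E14.5. The 11 after it lay 16226, 17730, 30424, 31395, 34171, 39623, 42265, 48311, 51414, 62471 and 64152 bp away and held 13 to 50 tags. The gene region, with peaks in both E12.5 libraries, was not among them. The E14.5 lists were the longest, with 317772 and 338262 peaks, and the E12.5 lists the shortest, with 100314 and 84990. The part of list length in this count was not tested.

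Among adult cells, 7 of the 70 flank regions had peaks in the ISC pair and none in the enterocyte pair, against 3.85% of all regions. They lay 73355, 64493, 42657 and 6557 bp before the gene, with 18 to 64 ISC tags, and 17730, 31395 and 38916 bp after it, with 17 to 52. No flank region had the reverse pattern, found at 1.28% of all regions. The ISC lists held 203322 and 282490 peaks and the enterocyte lists 164157 and 232179. The part of list length in these counts was not tested. No region of the window had a peak in every adult list and none in the embryonic lists, against 0.402% of all regions. In the gene itself neither adult cell type had a peak, so the lists show no difference between stem cells and enterocytes there.

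The strongest flank regions on either side carried peaks in both embryonic and adult cells. Before the gene this was chr4:45760938-45763689, with 168 and 173 tags in enterocytes and 54 and 82 in ISC. It held 147 and 65 at E14.5, and 150 in E12.5 replicate 1 with no peak in replicate 2. The 173 tags of enterocyte replicate 2 are the sum of 2 peaks, of 70 and 103, and the peaks of the ISC replicates do not overlap each other. After the gene, chr4:45895120-45897032 held 151 and 115 tags in enterocytes, 80 and 96 in ISC, 114 and 102 at E14.5, and 68 and 80 at E12.5. The latter was 1 of 7 flank regions called in all 8 libraries, against 5.16% of all regions. In the enterocyte libraries both exceeded most other peaks of the window, while the gene between them had none.

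Set beside regions elsewhere with the same libraries called, the gene region was high in both E14.5 libraries and in E12.5 replicate 1, but not in E12.5 replicate 2. On the autosomes 660 regions, the gene included, had a peak in all 4 embryonic and no adult library. The gene had the highest value by the lower of the 2 E14.5 libraries, 6.22 RPM, where the median of the other 659 was 0.781 and the next highest, at chr4:148192083-148194119, was 5.15. At E12.5 it ranked 4 of the 660 in replicate 1, with 2.91 RPM against a median of 0.869 in the others, and 465 in replicate 2, with 0.649 against 0.776. The E12.5 rank thus depended on the replicate, whose values differed 4.49 times. More widely, 410 autosomal regions had at least 6.22 RPM in both E14.5 libraries, and 2 of these, the gene among them, had no adult peak. Of all regions called in both E14.5 libraries, 10.2% had none. The locus was chosen on these same values, and the cutoff of 6.22 RPM is the gene's own value. Nothing is therefore read from these ranks and counts.

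**Figure D5:**
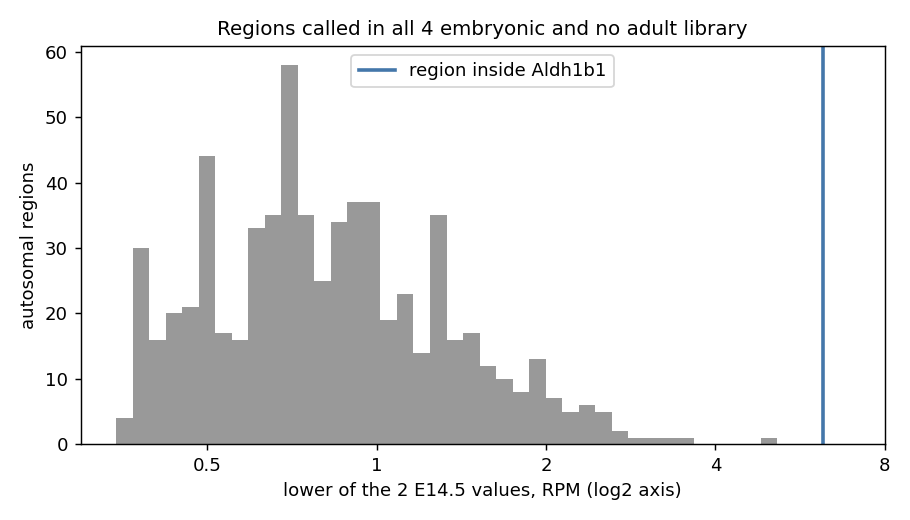
Number of autosomal regions (vertical axis) by the lower of the 2 E14.5 values in RPM (horizontal axis, log2 scale), for regions called in all 4 embryonic and no adult library. Grey bars are the 659 regions other than the gene and the line marks the region inside Aldh1b1, at 6.22, to the right of all of them. The locus was chosen on its values in these libraries.

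The regions most like it, by the largest absolute log2 difference in RPM over the 4 embryonic libraries, differed from it by 0.99 to 1.34. They were chr17:14509057-14510239, with 81 and 64 tags at E12.5 and 123 and 126 at E14.5, and chr5:113385709-113386796, with 79 and 62, then 117 and 114. Next came chr10:75199308-75200572, with 126 and 74 tags at E12.5 and 110 and 111 at E14.5. Last were chr15:89204857-89205988, with 124 and 51, then 103 and 102, and chr11:107549477-107550937, with 135 and 88, then 111 and 95. These 5 were picked for their likeness to the gene region, so their order of libraries is part of the choice.

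By gene order in RefSeq (GRCm38.p6, used for names only), the protein-coding genes before Aldh1b1 are Exosc3, Dcaf10, Slc25a51, Shb and Gm829, and those after it Igfbpl1, Stra6l, Ccdc180, Tdrd7 and Tmod1. Exosc3 is a subunit of the RNA exosome and Shb an adaptor protein of tyrosine kinase signalling. Stra6l belongs to the family of the retinol transporter Stra6. Peaks of the flanks were not assigned to these genes, since positions were not converted between builds.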

How the data were processed

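Build mm9 and the tools bcl2fastq 1.8.4, Bowtie 1.1.2 and SAMtools 1.2 are named, with no role, per the submitters' processing notes. The authors called peaks with MACS 1.4.2 on each library separately, with no control, at a p cutoff of 1e-05, per the file headers. The tags per peak are counts deposited by the authors and not normalized. The score (10 times the negative log10 of the p-value) and the fold enrichment (a ratio to local background) are the authors' values per the file headers.

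Depth was 31438314 to 55442400 tags per library. Peaks sharing 1 bp were merged, tags were divided by library totals (RPM, per 1000000), and shares were counted over 475861 regions, with Python 3.11.15 and pandas 2.3.3. No test was made. Merging was tested on simulated data. Named regions were those inside the gene, all that parted the compared groups, the 2 nearest and the strongest on each side, and the 5 most alike elsewhere. The window, lists and rules were chosen with earlier results of these data known. Other Aldh genes were not analysed here, for want of an mm9 annotation. Promoter sequence came from RefSeq.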

Additional observations from a re-analysis of the deposited data

How the results depend on the processing

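In the alternative runs, 3 or 4 embryonic libraries and 0 adult libraries had a peak inside the gene. The adult count was fixed in advance, since no run could add an adult peak there. The runs removed peaks or libraries or cut peaks to their summits. Others widened the merging or the span by less than the distance to the nearest adult peak. Leaving out an embryonic library gave 3 by construction. E12.5 replicate 2 lost its peak with the higher-scoring 50% of each list, so no E12.5 mean was formed there, and its peak covered less than 50% of the region. No paired analysis was possible because no result came from a test. The log2 difference between E14.5 and E12.5 inside the gene, 2.25, was 0.28 when scaled to tags in peaks, 1.42 with median-of-ratios scaling and 1.17 per kb of peak.

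Counts of flank regions called in both libraries of a group moved by over 1.5 times under several settings. With lists of equal length (84990 peaks) the count was 11 for E14.5 and 7 for each of enterocytes, ISC and E12.5. E12.5, the lowest in the full lists with 8, was thus level with both adult groups in that run. With the higher-scoring 50% of each list the counts were 10 in ISC, 7 in enterocytes, 4 at E12.5 and 18 at E14.5. Where peaks had to cover 50% of a region, enterocytes kept 16 and ISC had 25, while E14.5 fell to 13 and E12.5 to 3. E14.5, the highest in the full lists with 35, was thus below both adult groups under this rule. Median peak length was 849 and 615 bp in enterocytes, 474 and 502 in ISC, 450 and 272 at E14.5, and 586 and 506 at E12.5. The part of peak length in this change of order was not tested. Flanks of 50% of the length gave 3 at E12.5, 21 at E14.5, 15 for ISC and 8 for enterocytes, of 35, and flanks of 2 times the length 53 in ISC, 35 in enterocytes and 67 at E14.5, of 130. Fewer peaks, the cover rule or other flank lengths lower or raise these counts by construction, though not to the same extent in each group.

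Window regions in all embryonic and no adult library, 1 in the full lists, were 2 when peaks within 500 bp were merged, and 0 with the higher-scoring 50% of lists or with 50% cover. With 50% cover, 3 were in all adult and no embryonic library.

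Leaving out each library in turn gave 1 to 2 window regions in all embryonic and no adult library, and 0 to 1 for the reverse. Flank regions called ranged from 30 to 44 in ISC, 16 to 35 in enterocytes, 7 to 20 at E12.5 and 34 to 47 at E14.5, where a group left with 1 library is counted on that library. RPM inside the gene ranged from 0.649 to 2.91 at E12.5 and 6.22 to 6.91 at E14.5, the log2 difference from 1.17 to 3.34, and fold enrichment from 3.87 to 4.32 and 5.12 to 6.71.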

Other observations

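The other autosomal region with at least 6.22 RPM in both E14.5 libraries and no adult peak was chr1:90149092-90150721, chosen after its values were seen. It held 325 and 343 tags at E14.5 and had no E12.5 peak. An adult peak lay 324 bp from it, and the nearest adult peak to the Aldh1b1 region lay 1831 bp away. Both regions were picked by the gene's own value and pattern, so nothing is read from these distances.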
